A study of Mus musculus with 4 samples.

Results

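The respiratory chain genes described here are the 106 rows of the expression files whose symbols begin as those of mitochondrial genes (mt-) or of nuclear genes for subunits and name-sharing factors of complexes I to V (Ndufa, Ndufb, Ndufc, Ndufs, Ndufv, Sdh, Uqcr, Cox4 to Cox8 and Atp5), out of 16338 rows in all. The rows were picked by symbol alone, although the set of symbols was chosen with earlier results of these data known. The mitochondrial genome encodes 13 of them, the nucleus 91, and 2 are pseudogene rows (Atp5l2-ps and Ndufab1-ps). Of the nuclear genes, 77 are subunits and 14 are assembly or accessory factors.

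The study measured RNA in mouse T cells with 1 of 2 T cell receptors, TRP1high or TRP1low, that were cultured for 48 h with B cells carrying 1 of 2 peptides, K8 or M9. T cells were then sorted from the co-culture, and total RNA was sequenced. The 4 groups are TRP1high cells given K8 or M9 and TRP1low cells given K8 or M9, and each is a single library. Replicates are therefore lacking, and the spread between cultures is unknown for every difference below. The labels give no mouse strain, age, unstimulated control or affinity of either peptide.

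The respiratory chain passes electrons from NADH and succinate to oxygen through complexes I to IV in the inner mitochondrial membrane, and complex V uses the resulting proton gradient to make ATP. Complexes I, III, IV and V are built from proteins of both genomes, while every subunit of complex II is nuclear. Mitochondrial messages are cut from long transcripts that run along a strand of the circular mitochondrial genome, so they share their promoters, whereas each nuclear subunit has a promoter of its own. Activated T cells use both glycolysis and respiration, and mitochondrial mass grows after a T cell is stimulated.

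Among the 13 mitochondrial genes, 6 have a nearly identical stretch in the nuclear genome that the mouse annotation lists as a pseudogene and that has its own row in the files. All 6 lie side by side on the minus strand of chromosome 1 (mm10), from Gm28439 (24611535 to 24612410) through Gm28438, Gm28437, Gm10925 and Gm28661 to Gm29216 (24615706 to 24616197). They matter here because a read that covers no differing base cannot be placed by its sequence. The files hold counts for both the mitochondrial gene and its copy, and whether the latter came from mitochondrial message was not tested. The first 60 bases of mt-Co2 (chrM:7013-7072, plus strand) and of its copy Gm28661 (chr1:24615506-24615565, minus strand) are shown because they do not differ at any base, nor at any of the 681 bases compared.
mt-Co2: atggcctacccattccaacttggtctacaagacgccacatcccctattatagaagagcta
Gm28661: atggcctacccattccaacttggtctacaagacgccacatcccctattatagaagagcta
The starts of mt-Nd3 (chrM:9459-9519, plus strand) and of its copy Gm28438 (chr1:24613059-24613119, minus strand) hold the single base in 345 that differs, T3C counted from the first base of mt-Nd3, in capitals.
mt-Nd3: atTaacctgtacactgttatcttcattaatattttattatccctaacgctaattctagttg
Gm28438: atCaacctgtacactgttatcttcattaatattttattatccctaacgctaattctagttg
Neighbouring mitochondrial genes also share bases: mt-Atp8 and mt-Atp6 overlap by 43 (chrM:7927-7969), mt-Nd5 and mt-Nd6, which lie on opposite strands, by 14, and mt-Nd4l and mt-Nd4 by 7. The first overlap is shown with the start codon of mt-Atp6 in capitals, because reads inside it belong to both genes.
mt-Atp8 and mt-Atp6: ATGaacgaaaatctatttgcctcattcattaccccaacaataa

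Values are log2 normalized counts as deposited, that is, the log2 of a normalized count plus 1, and a difference is the deposited value of 1 library minus that of another. Wherever 4 values stand in a row, the first pair belongs to TRP1high and the last pair to TRP1low, each with K8 before M9. The libraries held 29.6 M (TRP1low with K8) to 41.6 M (TRP1high with M9) estimated reads, with 633 to 1205 genes at 0, and a limit of 3 reads lies between log2 1.99 and 2.35. CD8 T cell markers were plentiful in every library (Cd8a between log2 14.33 and 15.14, Cd3e between 11.92 and 13.35). The 12 B cell markers together took 0.00560%, 0.000631%, 0.00281% and 0.00104% of counts. In TRP1high with M9, Pax5 and Cr2 were at 0. The 5 measured erythroid markers took 0.00150% in TRP1low with K8 and at most 2.30e-05% elsewhere, and the 6 myeloid or dendritic markers 0.000390% there and at most 5.87e-05% elsewhere.

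The library of TRP1high cells with M9 held the least mitochondrial message, and the nuclear genes did not share this. The 13 mitochondrial genes took 6.08% (TRP1high, K8), 4.33% (TRP1high, M9), 7.34% (TRP1low, K8) and 7.47% (TRP1low, M9) of normalized counts. The 95% Wilson intervals on estimated reads, which cover counting error only, span less than 0.02 percentage points around each share (4.328 to 4.341 in TRP1high with M9). The 91 nuclear genes took 1.55%, 1.68%, 1.54% and 1.64%, so they were slightly higher in both M9 libraries. Counts of the mitochondrial genes were thus 3.93, 2.58, 4.75 and 4.55 times those of the nuclear genes. B cell markers were also lowest in the library with the least mitochondrial message, and their part in it was not tested. In bulk RNA, fewer cells of a type and less message per cell cannot be told apart.

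**Figure D1:**
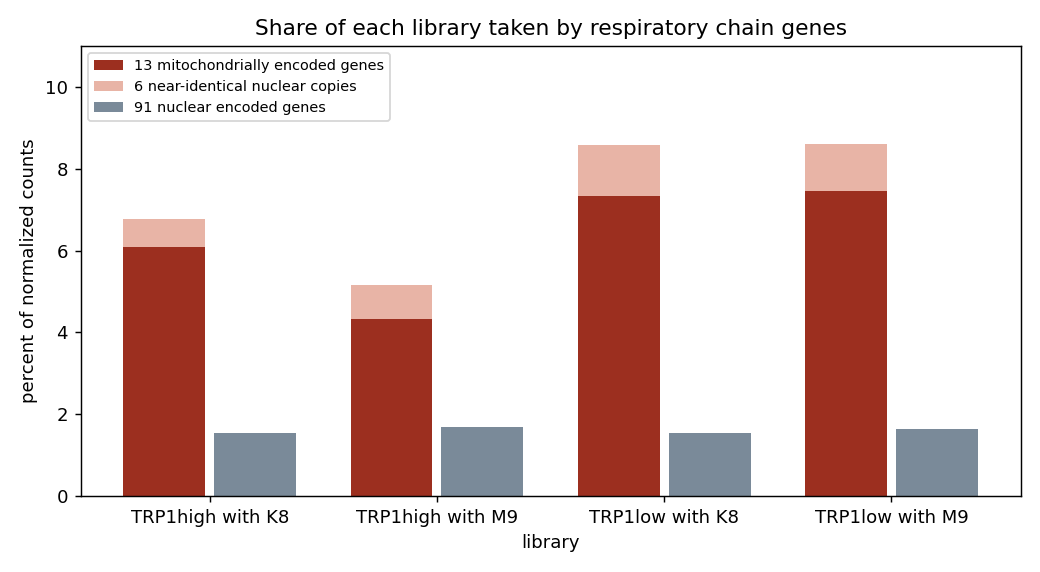
Percent of all normalized counts in each of the 4 libraries (1 per group) taken by the 13 mitochondrially encoded genes (red), by their 6 near-identical nuclear copies stacked on them (pink) and by the 91 nuclear encoded genes (grey). The red bar is lowest in TRP1high with M9, at 4.33%, and the grey bars lie between 1.54% and 1.68%.

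Every one of the 13 mitochondrial genes had its lowest value in TRP1high with M9. Among all 12853 genes that averaged 10 normalized counts or more, this library was the lowest of the 4 for 30.9%. Among the 90 nuclear respiratory genes above the same limit it was the lowest for 15 and the highest for 35 (24.1% of all genes). TRP1high with K8 was the lowest for 35 (20.7% of all genes) and TRP1low with K8 for 36 (31.6%). TRP1low with M9 was the highest for 40 (22.3%). TRP1low libraries held the highest value of each mitochondrial gene, with K8 in 7 (32.5% of all genes) and with M9 in 6 (22.3%). The range over the 4 libraries had a median of 0.82 log2 for the mitochondrial and 0.38 for the nuclear genes.

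mt-Co1, the catalytic subunit of complex IV, was the most abundant member by count, at log2 19.41 and 19.15 in TRP1high, then 19.39 and 19.63 in TRP1low. mt-Co3, another core subunit of that complex, stood at 18.32, 17.94, 18.97 and 19.05, with both TRP1low libraries above both TRP1high libraries. The share of all genes split between receptors in this way was not counted, which holds for each such gene below. mt-Cytb, the only mitochondrial subunit of complex III, stood at 17.53, 17.21, 17.89 and 17.83. These 3 genes were lower in TRP1high with M9 than with K8 by 0.25 to 0.38 log2.

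Complex I takes 7 of its subunits from the mitochondrial genome. mt-Nd1 stood at 17.83, 17.25, 18.35 and 18.45, and mt-Nd2 at 16.97, 16.41, 17.36 and 17.31. Both form part of the membrane arm that pumps protons, and for both the TRP1high libraries lay below the TRP1low libraries. mt-Nd5, at the far end of that arm, stood at 16.73, 16.28, 17.10 and 16.71, and was lower with M9 in both receptors. mt-Nd6, the only protein gene on the other strand (chromosome M, 13552 to 14070), stood at 14.99, 14.56, 15.30 and 14.87, with the M9 library lower by 0.43 in each receptor. Whether the counting used strand is not given in the sources used here, so mt-Nd6 and antisense RNA of the opposite strand cannot be told apart. mt-Nd4 stood at 17.21, 16.76, 17.34 and 17.24, and mt-Nd4l at 14.61, 14.10, 14.74 and 14.63. These genes overlap along the genome, and their differences were almost equal in each comparison.

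The membrane subunits of ATP synthase, mt-Atp6 and mt-Atp8, were lower in both TRP1high libraries than in both TRP1low libraries. mt-Atp8 stood at 15.38, 15.02, 16.22 and 16.10, and mt-Atp6 at 17.90, 16.95, 18.51 and 18.51. mt-Co2, which accepts electrons from cytochrome c, stood at 18.02, 17.23, 17.54 and 18.04, and mt-Nd3 at 13.96, 12.79, 13.73 and 14.39. The last 3 genes have a nuclear copy that held a large part of the summed counts of gene and copy.

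**Figure D2:**
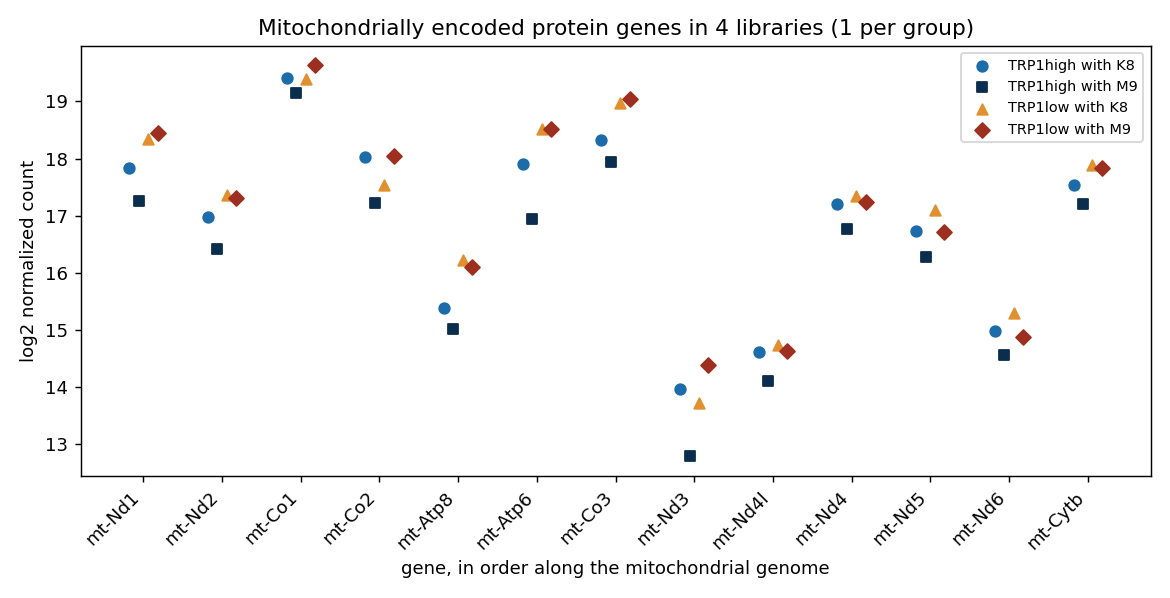
Deposited log2 normalized count (vertical axis) of the 13 mitochondrially encoded protein genes, in their order along the mitochondrial genome, with 1 point per library. The dark squares of TRP1high with M9 are the lowest point of each of the 13 genes.

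Per kilobase of transcript, the mitochondrial genes ran from 41635 normalized counts (mt-Nd3, mean of the 4 libraries) to 521120 (mt-Co3), with a median of 178243. The 91 nuclear genes had a median of 4904 and ran from 2.61 to 50206 normalized counts per kilobase. The most abundant nuclear genes on this scale were Atp5b (50206), the catalytic beta subunit of ATP synthase, Atp5g3 (30065), a gene for its rotor ring subunit c, and Atp5a1 (29498), its alpha subunit. The least abundant were Cox6a2 (2.61), Cox7a1 (50.5) and Atp5s (77.6), of which Cox6a2 and Cox7a1 are isoforms of heart and skeletal muscle. Mitochondrial and nuclear levels as deposited thus overlapped on this scale only at mt-Nd3 and Atp5b. Counted with its nuclear copy, mt-Nd3 stood at 164455 normalized counts per kilobase, and the lowest mitochondrial gene was then mt-Nd5 (59758), above Atp5b.

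With M9 against K8 in TRP1high cells, mitochondrial genes were lower and most nuclear genes slightly higher. All 13 mitochondrial genes were below 0 (53.5% of all genes were), with a median difference of -0.45 and a range from -1.17 (mt-Nd3) to -0.25 (mt-Co1), against a median of -0.02 over the 16102 genes tested. Of the 90 nuclear genes above the count limit of 10, 73 were above 0 and 17 below, with a median of 0.14, while 46.3% of all genes above that limit were higher with M9. Summed counts gave 1.38-fold less mitochondrial message and 1.11-fold more nuclear message. For 1 of the 106 members (mt-Nd3, lower) the libraries were at least 2-fold apart with 10 normalized counts or more in the higher, against 9.87% of all genes tested, 5.14% higher and 4.73% lower.

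With M9 against K8 in TRP1low cells, the nuclear genes lay in much the same place and the mitochondrial genes stood near level. The 13 mitochondrial genes had a median of -0.05, with 6 above 0 and 7 below (47.8% of all genes), from -0.43 (mt-Nd6) to 0.65 (mt-Nd3), while their summed counts were 1.06-fold higher, with the abundant mt-Co1 among those above 0. The 90 nuclear genes had a median of 0.16, with 71 above 0, against 52.1% of all genes. Of the 106 members, 0 were at least 2-fold apart, against 15.1% of all genes, 7.67% higher and 7.43% lower. Besides mt-Nd3, mt-Co2 (0.50), mt-Nd6 and mt-Nd5 (-0.40), the largest differences among the 90 nuclear genes were those of Ndufa12 (0.62), Ndufaf2 (0.52), Ndufa10 (0.51), Ndufa7 (0.45) and Ndufs6 (0.45) on the higher side, and of Cox6b2 (-0.53), Ndufaf1 (-0.47), Sdhaf4 (-0.42), Sdhaf1 (-0.35) and Cox7a1 (-0.31) on the lower side.

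The peptide differences of the 2 receptors come from separate libraries. Of the 90 nuclear genes, 62 were higher with M9 in both receptors, 8 lower in both and 20 had opposite signs, while 30.0% of the 12853 genes were higher in both. Of the mitochondrial genes, 0 were higher in both and 7 lower in both, against 31.4% of all genes. Over both receptors, limma with Benjamini-Hochberg adjustment over 16102 genes passed 0 members for the peptide (lowest adjusted p = 0.58) and 0 genes in all. At an unadjusted p under 0.05 it held 1 member, the pseudogene row Ndufab1-ps with at most 5 reads, and 8.33% of all genes. This fit has 1 residual degree of freedom and measures how far the 2 pairs of libraries disagree, not the spread between cultures.

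**Figure D3:**
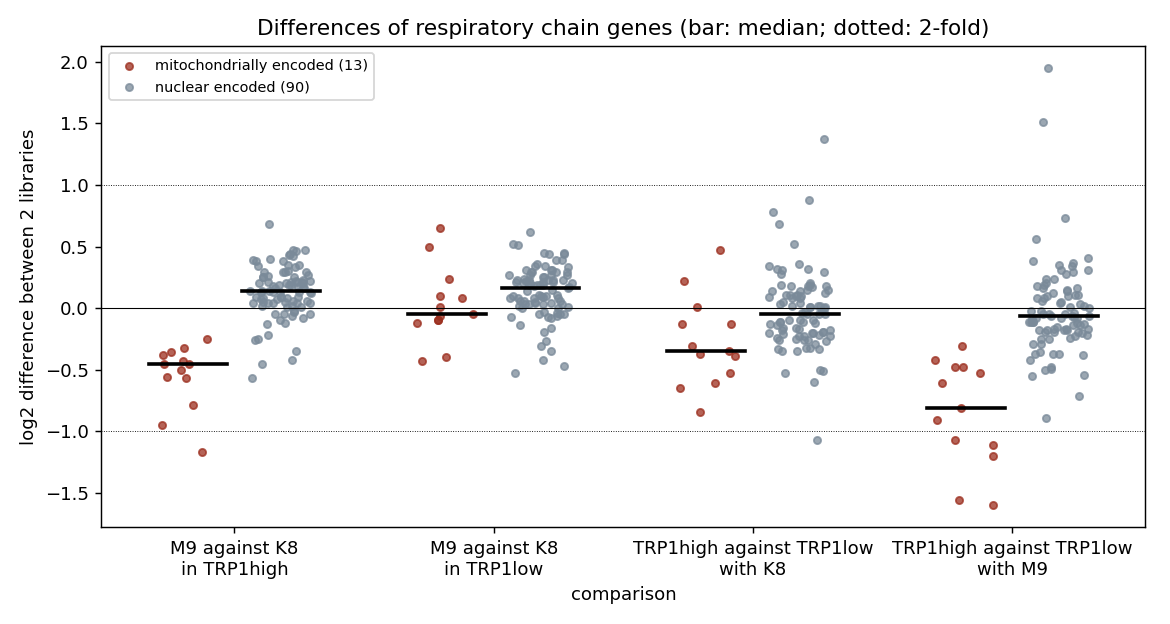
Log2 difference between 2 libraries (vertical axis) of the 13 mitochondrially encoded genes (red) and of the 90 nuclear encoded genes above the count limit of 10 (grey) in each of the 4 comparisons, with black bars at the medians and dotted lines at 2-fold. In TRP1high the mitochondrial median is -0.45 and the nuclear median 0.14, and with M9 the receptor medians are -0.81 and -0.07.

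TRP1high cells held less mitochondrial message than TRP1low cells with either peptide, and the gap was wider with M9. With K8, 10 of the 13 mitochondrial genes were lower in TRP1high, as were 52.2% of all genes (median -0.35, from -0.84 for mt-Atp8 to 0.47 for mt-Co2). With M9, 13 of 13 were lower, as were 53.7% of all genes (median -0.81, from -1.60 for mt-Nd3 to -0.31 for mt-Nd6), and summed counts were 1.77-fold lower, against 1.21-fold with K8. The nuclear genes were near level, with medians of -0.04 and -0.07 and sums within 1.004-fold of each other in both cases. Of the nuclear genes, 36 of 90 were higher in TRP1high with M9, against 46.2% of all genes. Lower in TRP1high with both peptides were 10 of 13 mitochondrial and 44 of 90 nuclear genes, against 38.1% of all genes. The comparison of peptides in TRP1high and that of receptors with M9 share a library, TRP1high with M9, which is the low one in both.

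At least 2-fold differences between receptors were few among members. With K8 they were 2 of 106 (Cox6b2 higher and Sdhaf4 lower in TRP1high), against 18.9% of all genes, 10.6% higher and 8.35% lower. With M9 they were 7 of 106, against 12.9% of all genes: mt-Nd3 (-1.60), mt-Atp6 (-1.56), mt-Nd1 (-1.20), mt-Co3 (-1.11) and mt-Atp8 (-1.07) were lower in TRP1high, and Cox6b2 (1.95) and Cox7a1 (1.51) were higher. Of all genes, 5.58% were at least 2-fold lower and 7.37% higher. For the receptor over both peptides, limma with Benjamini-Hochberg adjustment passed 0 of 106 members and 0 genes in all. At an unadjusted p under 0.05 it held 3 members, against 12.7% of all genes: Cox6b2 (1.66, SE 0.27, adjusted p = 0.38), mt-Atp8 (-0.95, SE 0.20, adjusted p = 0.38) and Ndufv3 (0.75, SE 0.19, adjusted p = 0.39). Each of these 3 had the same direction with both peptides, which adds no evidence, because this fit gives a low p where the 2 pairs of libraries agree. With a variance trend on intensity, mt-Atp8 passed, at an adjusted p of 0.037, as did 260 genes in all.

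Several mitochondrial differences had another size once the nuclear copies were counted with their genes. The share of counts on the copy was 64.3%, 77.3%, 81.7% and 72.9% for mt-Nd3 and Gm28438. It was 17.5%, 44.8%, 28.1% and 26.6% for mt-Atp6 and Gm10925, and 10.4%, 33.0%, 37.0% and 24.6% for mt-Co2 and Gm28661. For mt-Co1 and Gm29216 it was 17.2% in the lowest and 17.95% in the highest library, for mt-Nd4 and Gm28439 between 10.2% and 11.95%, and for mt-Co3 and Gm28437 it was 0.0979%, 1.78%, 2.57% and 0.890%. The pairs of mt-Nd3, mt-Atp6, mt-Co2 and mt-Co3 thus split their counts unequally from library to library, although Gm10925, Gm28661 and Gm28437 have no base in which they differ from the mitochondrial gene over the stretch they cover.

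Each copy was therefore added to its gene, a step chosen after the values were seen. In TRP1high, the M9 to K8 difference of mt-Atp6 went from -0.95 to -0.37, that of mt-Co2 from -0.79 to -0.37 and that of mt-Nd3 from -1.17 to -0.52. All 13 genes then lay between -0.57 (mt-Nd1) and -0.25 (mt-Co1), and their SD over genes was 0.10 in place of 0.27. In TRP1low, mt-Nd3 went from 0.65 to 0.09 and mt-Co2 from 0.50 to 0.24. In the receptor comparison with K8, the higher value of TRP1high turned into a lower one for mt-Nd3 (0.22 to -0.74) and for mt-Co2 (0.47 to -0.03), and 12 of 13 genes were then lower. With M9 all 13 stayed lower, mt-Atp6 at -1.15 and mt-Nd3 at -1.35, and 5 of 13 were at least 2-fold lower. The 7 genes without a copy row ran from -0.57 to -0.32 between the peptides in TRP1high and from -1.20 to -0.31 between the receptors with M9, and all 7 were lower in both. With the copies, the mitochondrial share of counts was 6.77%, 5.16%, 8.57% and 8.60%. The copy of mt-Nd4l, Gm10222, was not analysed here.

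**Figure D4:**
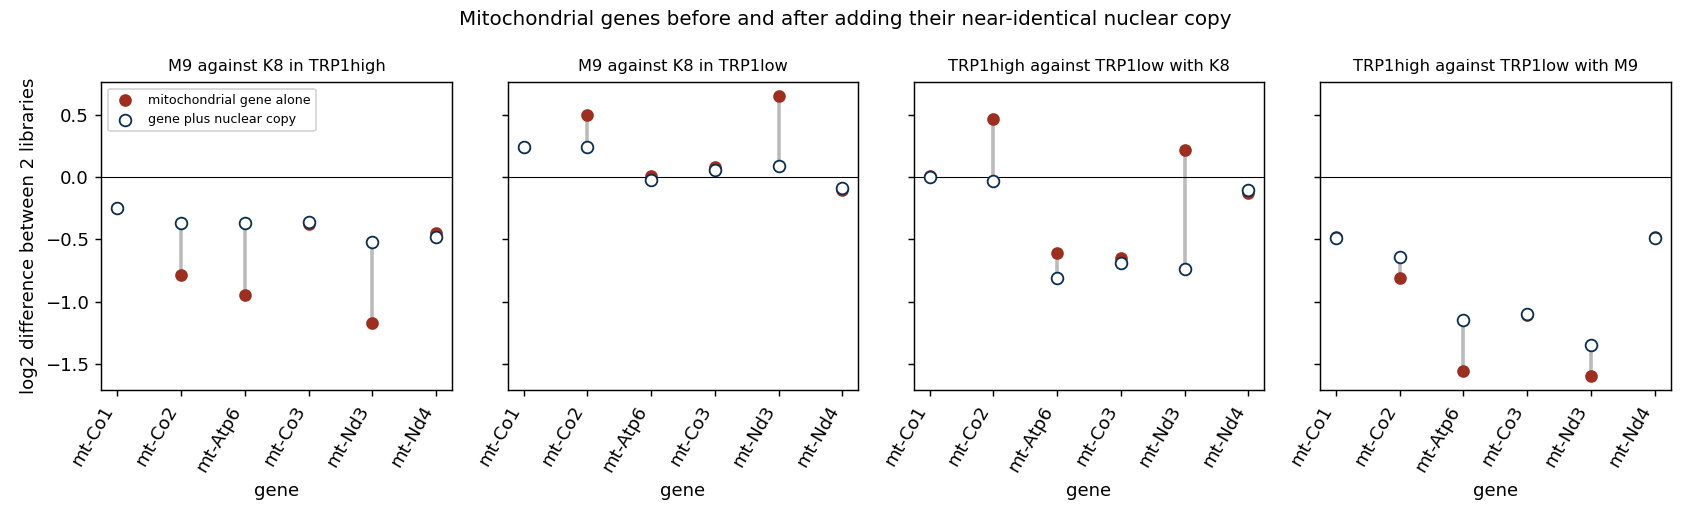
Log2 difference between 2 libraries (vertical axis) of the 6 mitochondrial genes that have a near-identical nuclear copy, for the gene alone (red) and for the gene plus its copy (open), in the 4 comparisons. In the first panel mt-Co2, mt-Atp6 and mt-Nd3 move to between -0.52 and -0.37 once the copy is added.

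By complex, the medians of the nuclear subunits lay higher with M9 in complexes I, III, IV and V, and that of the 4 genes of complex II was near 0. Medians of M9 against K8 in TRP1high and TRP1low were 0.17 and 0.20 for the 36 nuclear subunits of complex I, 0.15 and 0.21 for the 8 of complex III, 0.21 and 0.18 for the 13 of complex IV above the count limit, and 0.14 and 0.22 for the 15 of complex V. The 4 subunits of complex II had medians of -0.02 and -0.03, and the 14 assembly or accessory factors 0.01 and -0.06. Those 4 subunits ran from -0.06 (Sdhd) to 0.02 (Sdhc) in TRP1high, but from -0.19 (Sdha) to 0.25 (Sdhb) in TRP1low. Mitochondrial subunits of complexes I, IV and V had medians of -0.50, -0.38 and -0.65 in TRP1high and of -0.10, 0.24 and -0.06 in TRP1low. No nuclear member above the count limit was 2-fold apart between the peptides, against 9.87% of all genes in TRP1high and 15.1% in TRP1low.

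In complex I, the 29 accessory subunits were higher with M9 in 25 cases in TRP1high and in 29 in TRP1low (medians 0.20 and 0.21), against 46.3% and 52.1% of all genes. The 7 conserved core subunits that carry the flavin, iron-sulfur clusters and quinone site had medians of 0.09 and 0.10. Among them Ndufv1, which binds NADH, stood at 12.52, 12.65, 12.50 and 12.77, and Ndufs1, which holds several iron-sulfur clusters, at 12.35, 12.09, 12.45 and 12.45. Ndufs1 was lowest in TRP1high with M9, as the mitochondrial genes were. Between the receptors, Ndufa10 was higher in TRP1high (12.57, 12.58, 11.68 and 12.20), as was Ndufv3, an accessory subunit of the NADH-binding part (11.57, 11.82, 10.79 and 11.10). The values of the 2 TRP1high libraries did not overlap those of the 2 TRP1low libraries for either gene, but the share of all genes split in this way was not counted.

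The 4 genes of succinate dehydrogenase (complex II), which also works in the tricarboxylic acid cycle, ranged over 0.19 (Sdhd) to 0.60 log2 (Sdhc) between libraries, against a nuclear median of 0.38. Sdha, the flavoprotein, stood at 13.63, 13.57, 13.81 and 13.62, and Sdhb, the iron-sulfur protein, at 12.98, 12.98, 12.65 and 12.90. Of the membrane anchors, Sdhd stood at 13.41, 13.36, 13.52 and 13.55. Sdhc was lower in both TRP1high libraries (12.11 and 12.12) than in both TRP1low libraries (12.70 and 12.62). Sdhaf4, an assembly factor for the flavoprotein, stood at 7.49, 7.66, 8.56 and 8.14. With K8 it was 2.11-fold lower in TRP1high on 179 and 275 reads (95% exact counting interval 1.74 to 2.56).

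In complex III, the core protein Uqcrc1 stood at 13.46, 13.55, 13.66 and 13.61. The Rieske iron-sulfur protein Uqcrfs1 stood at 13.41, 13.53, 13.60 and 13.78. In complex V, Atp5b stood at 16.52, 16.74, 16.32 and 16.59 and was higher with M9 in both receptors, while Atp5a1 (16.12, 16.20, 16.10 and 16.19) had the narrowest range of the nuclear members, 0.10 log2. The 3 genes for subunit c, which encode 1 mature protein, went different ways: the M9 to K8 differences were -0.22 and 0.29 for Atp5g1, 0.14 and -0.05 for Atp5g2 and 0.12 and 0.06 for Atp5g3 in TRP1high and TRP1low.

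In complex IV, the common isoforms were abundant and the isoforms of other tissues had few reads. Cox4i1 stood between 13.70 and 14.09, Cox6a1 between 12.69 and 13.21, Cox6b1 between 12.60 and 13.06, Cox6c between 11.91 and 12.53, Cox7a2 between 12.58 and 13.04, Cox7b between 12.67 and 13.08 and Cox8a between 13.30 and 13.70, each highest in TRP1high with M9. Of the 13 nuclear subunits above the count limit, 11 were highest in that library, and Cox5a and Cox7c were highest in TRP1low with M9 (13.50 and 10.79). Ndufa4, a subunit of complex IV despite its name, is among the 11 that were highest in TRP1high with M9 (12.99, 13.15, 12.81 and 13.04). Cox7a2l, which joins complexes III and IV into supercomplexes, stood at 12.79, 13.12, 12.91 and 12.75. TRP1high with M9 was the highest library for 24.1% of the 12853 genes. Cox4i2, Cox7b2, Cox8b, Cox8c and Ndufa4l2 were not analysed here.

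Cox6b2, known as the testis isoform of subunit 6b, had 86, 89, 24 and 21 reads, or log2 6.43, 6.48, 5.06 and 4.53. It was 2.64-fold (95% exact counting interval 1.65 to 4.30) and 4.01-fold (2.46 to 6.77) higher in TRP1high, with K8 and with M9 respectively. Cox7a1 had 21, 34, 10 and 11 reads, and was 3.01-fold higher in TRP1high with M9 (1.44 to 6.38) and 1.46-fold with K8 (0.69 to 3.64), the latter interval including no difference. Cox6a2 had at most 5 reads in each library, and the pseudogene rows Atp5l2-ps and Ndufab1-ps at most 8. At these depths no direction can be given for the last 3.

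**Figure D5:**
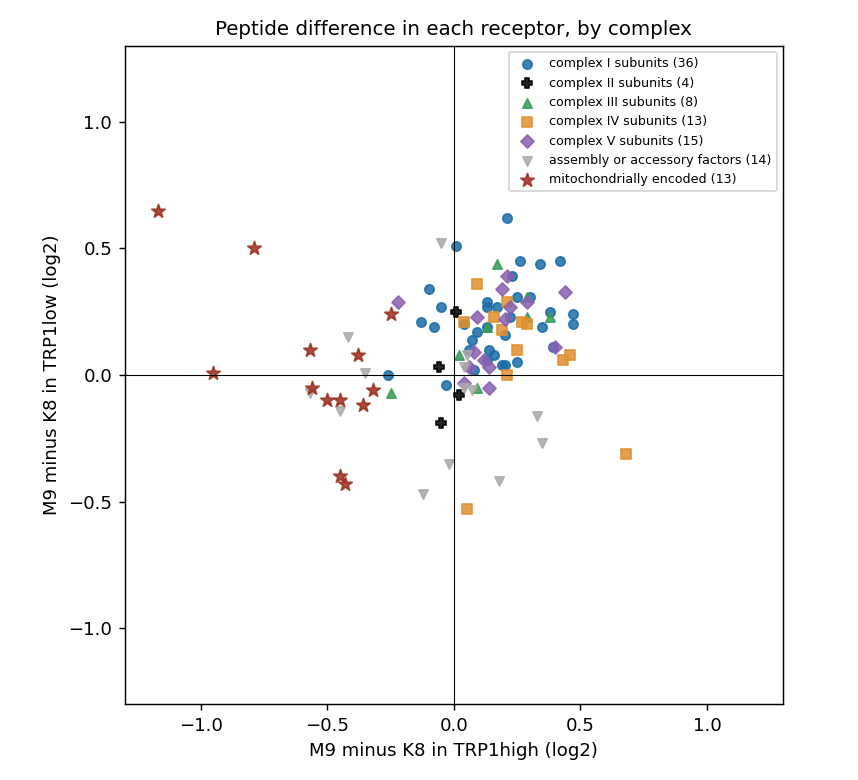
M9 minus K8 log2 difference in TRP1high (horizontal axis) and in TRP1low (vertical axis), 1 point per gene above the count limit of 10, by complex. The 13 mitochondrial genes lie left of 0, while 62 of the 90 nuclear genes lie above 0 on both axes.

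Genes that serve mitochondrial expression but are not members were mostly lower in TRP1high. Of 29 genes of mitochondrial transcription, RNA processing and DNA maintenance, 24 were lower in TRP1high than in TRP1low with K8 and 26 with M9 (medians -0.23 and -0.27, against 52.2% and 53.7% of all genes lower). Each time 1 was at least 2-fold lower (Pnpt1 at -1.07 with K8, and Fastkd1 at -1.09 with M9), against 8.35% and 5.58% of all genes. Tfam, which packages mitochondrial DNA and starts its transcription, stood at 11.79, 11.49, 12.25 and 11.96. Polrmt, the mitochondrial RNA polymerase, went the other way between receptors (10.27, 10.20, 9.50 and 9.90). Lrpprc, which stabilises mitochondrial messages, had the lowest M9 to K8 difference of the list in TRP1high, at -0.57. Between the peptides the medians were -0.10 and -0.02, with none of the 29 at least 2-fold apart, against 9.87% and 15.1% of all genes.

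The 78 mitochondrial ribosomal proteins translate the messages of the 13 mitochondrial genes. The medians of these ribosomal protein genes were 0.01 and 0.16 for M9 against K8, and -0.11 and -0.22 for TRP1high against TRP1low. With M9, 67 of 78 were lower in TRP1high, against 53.7% of all genes. None was at least 2-fold apart in any comparison, against 9.87% to 18.9% of all genes. Of 10 regulators of mitochondrial biogenesis, 2 were at least 2-fold higher in TRP1high with K8, the coactivators Pprc1 (1.44) and Ppargc1b (1.11), against 10.6% of all genes. Their median was -0.33 between the peptides in TRP1high, 0.16 in TRP1low, and 0.41 and -0.04 between receptors with K8 and M9. Of 18 genes of the tricarboxylic acid cycle and its entry, pyruvate carboxylase (Pcx) was the only gene at least 2-fold apart, 2.45 higher with M9 in TRP1low and 2.61 higher in TRP1high than in TRP1low with K8. Of all genes, 15.1% and 18.9% were at least 2-fold apart in these 2 comparisons.

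The measured assembly factors named outside the rule numbered 39. With M9, 1 of them was at least 2-fold lower in TRP1high and 2 in TRP1low, against 4.73% and 7.43% of all genes. Pet117, a complex IV assembly factor, was at 0 in both M9 libraries and at log2 4.58 and 6.14 with K8 in TRP1high and TRP1low. Lyrm7, of complex III, was 1.14 lower with M9 in TRP1low. Sco1, a copper carrier for complex IV, was 1.55 higher in TRP1high with K8. The list's medians were -0.05, -0.02, -0.15 and -0.22 for M9 in TRP1high, M9 in TRP1low, the receptor with K8 and the receptor with M9. Of 17 electron carrier and related genes, Coq8a, of coenzyme Q synthesis, was the only one at least 2-fold apart, lower with M9 in TRP1low (-1.60) and lower in TRP1high with K8 (-1.04). Of all genes, 15.1% and 18.9% were at least 2-fold apart in these 2 comparisons. The 17 glycolysis genes, for contrast, had medians of 0.35, 0.58, 0.80 and 0.25 in the same order of comparisons.

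More promoter windows of the nuclear members than of all genes held letters bound by factors known for respiratory genes. RefSeq promoter windows of 300 bases around the start (GRCm38.p6) matched 78 of the 91 nuclear genes. The NRF1 consensus has degenerate letters at its ends and middle. Read on both strands, it was in 9.64% of the 83 windows of these genes and in 1.27% of all 32851 windows. The ETS core CCGGAAG was in 25.3% against 8.86%, and AAGATGG, the start of the YY1 element, in 14.5% against 6.34%. These are matches of letters only, an ETS match can overlap a YY1 match by its last 3 letters, and all windows include genes that T cells do not express. Besides Uqcrc1, the NRF1 consensus was found at Atp5c1, Atp5g2, Ndufa11, Ndufa6, Ndufb4, Sdhaf4 and Sdhd. The promoters of Atp5c1, the central stalk subunit of ATP synthase (chr2:10080383-10080682, minus strand), and of Uqcrc1 (chr9:108936398-108936697, plus strand) are shown with the NRF1 match in capitals, as the most abundant members that hold one.
Atp5c1: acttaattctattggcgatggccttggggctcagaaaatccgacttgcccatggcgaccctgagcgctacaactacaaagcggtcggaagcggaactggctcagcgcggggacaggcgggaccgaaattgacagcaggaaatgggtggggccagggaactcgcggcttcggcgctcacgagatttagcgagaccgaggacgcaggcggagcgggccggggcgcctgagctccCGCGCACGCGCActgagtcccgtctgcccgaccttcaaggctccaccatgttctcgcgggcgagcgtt
Uqcrc1: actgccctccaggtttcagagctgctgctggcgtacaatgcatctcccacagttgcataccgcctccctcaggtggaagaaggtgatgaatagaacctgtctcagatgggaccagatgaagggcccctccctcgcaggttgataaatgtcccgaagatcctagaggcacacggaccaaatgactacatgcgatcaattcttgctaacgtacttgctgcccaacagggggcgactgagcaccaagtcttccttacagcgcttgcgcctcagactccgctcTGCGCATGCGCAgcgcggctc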

How the data were processed

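The deposited values are log2 normalized counts per the file headers, with 1 value for each symbol in a library; their smallest value is 0, so they were read as the log2 of a normalized count plus 1. The submitters' processing notes name Salmon 0.8.2, DESeq2 1.20.0 and mm10. Annotation, strand setting and filters are not given there. In each library low values piled up at 1 step (0.998, 0.989, 1.37 and 1.05 normalized counts for TRP1high K8 and M9, then TRP1low K8 and M9), which was taken as 1 read. Counting intervals are 95% exact intervals for ratios and Wilson intervals for shares, on rounded reads, and the limit for a count of 0 is 3 reads.

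The deposited scaling was kept. All 106 members matched a symbol of GENCODE M21 (mm10), used for positions and transcript lengths. Genes averaging 1 normalized count or more were tested (16102), and medians of nuclear members use those averaging 10 or more. limma 3.58.1 in R 4.3.3 fitted receptor and peptide as an additive model (eBayes, trend off, Benjamini-Hochberg at 0.05). A run on simulated data checked the code only: its planted shifts were larger than any member difference here, so it does not give the power of the fit on these libraries. Copies are pseudogene transcripts at least 99% identical (BLAST) over at least 90% of their length.

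Members and lists were chosen with earlier results of these data known. Genes named were all mitochondrial genes, members at least 2-fold apart or else the 5 nuclear members at each end, the complex II subunits, isoform sets, catalytic subunits and extremes of abundance and of other lists. The other genes named were chosen after their values were seen.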

Additional observations from a re-analysis of the deposited data

Results flagged for a closer look

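Results are listed here where M9 minus K8 was at least 0.25 log2 in both receptors with opposite signs. With 1 library per group the difference between receptors was not tested. The summed mitochondrial message differed by -0.46 log2 in TRP1high and by 0.09 in TRP1low, and is listed whatever its size. mt-Nd3 differed by -1.17 and 0.65, and mt-Co2 by -0.79 and 0.50. With the nuclear copy added, these became -0.52 and 0.09 for mt-Nd3 and -0.37 and 0.24 for mt-Co2. Ndufaf3, a complex I assembly factor, differed by 0.35 and -0.27. Cox7a1 differed by 0.68 and -0.31 on 10 to 34 reads a library, and both counting intervals include no difference (ratio 0.90 to 2.91 in TRP1high and 0.33 to 2.22 in TRP1low).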

How the results depend on the processing

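Of 86 values recomputed under other settings, 72 stayed within the bounds set for them, 13 moved and 1 changed sign. For medians over genes the bounds were the 95% binomial limits of the median. At 1.5-fold in place of 2-fold, members apart numbered 4 and 2 between the peptides in TRP1high and TRP1low, and 9 and 13 between the receptors with K8 and M9, against 1, 0, 2 and 7. Without a minimum count they numbered 3 and 2 between the peptides. With copies added, a step chosen after seeing the data, 0 members were 2-fold apart between the peptides in TRP1high, and mitochondrial shares became 6.77%, 5.16%, 8.57% and 8.60%. Scaled to counts that are not mitochondrial, the nuclear median in TRP1high was 0.09 in place of 0.14. The nuclear median between the receptors with K8, at -0.04, was 0.01 for structural subunits only. With the variance trend on, 1 member (mt-Atp8) passed limma for the receptor. The mitochondrial minus nuclear median difference was -0.59, -0.21, -0.31 and -0.74 in the 4 comparisons and was negative in each alternative run. Its limits, taken from the far ends of the limits of both medians, include 0 between the peptides in TRP1low (-0.332 to 0.156) and between the receptors with K8 (-0.63 to 0.135). All such limits describe the spread over genes within 1 pair of libraries. Genes are not replicates, so limits that leave out 0 in the other comparisons do not test a difference between cultures either. With sums in place of medians, the value between the peptides in TRP1low was -0.06. No row for mitochondrial rRNA or tRNA was among the members, so leaving them out could not be run. No paired analysis was possible because the labels carry no replicate numbers and each group holds 1 library. With 1 library per group, the spread between cultures is unknown, and depth limits the rare isoforms.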
